A study of Mus musculus with 20 samples.

Results

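Wild-type mouse fibroblasts with an intact gene for heat shock factor 1 (labelled HSF1 +/+, WT below) were compared between 3 and 8 h of a heat shock time course and their unshocked state. Of the 20 arrays of the series, 7 entered this comparison: 1 each labelled Heat Shock 3, 4, 6 and 8 hours, called the late arrays, and 3 labelled 0 hours (#1 to #3). All 20 arrays shared the estimate of the spread. The other 13 were WT cells at 0.5, 1 and 2 h (1 array each, called early) and fibroblasts without the gene (HSF1 -/-, called KO) at 0 h (3 arrays) and at the same 7 times (1 array each). Each sample was labelled with Cy5. It was hybridised against 1 reference in Cy3 shared by all arrays, pooled mRNA of fibroblasts shocked for 1 h and of fibroblasts that were not. The temperature, the way the HSF1 -/- cells were made and whether cells stayed in the heat until harvest are not given in the sources used here. Whether the arrays stand for separate cultures is not said in the labels. The p-values rest on the scatter among arrays within 6 groups (0 h, early and late of each genotype), which may be technical. In the early and late groups that scatter also holds any change between times, because each time is 1 array. The spread of a gene that changes within these groups is therefore wider. Within the late group, array and time cannot be told apart.

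HSF1 is a transcription factor that is held inactive in unstressed cells and, when proteins unfold in the heat, forms trimers that bind heat shock elements, runs of short inverted repeats in gene promoters. Its best known targets encode chaperones, which keep unfolded proteins from aggregating and refold them. Fibroblasts under heat stress are also known to pause division and to reorganise their cytoskeleton.

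Values are log ratios of sample to reference pool, treated as log2. They are given relative to the mean of the WT 0 h arrays, so a value of 1 is a doubling. The log base and the direction of the ratio are not stated in the sources used here. Base 10 is not possible, because the largest absolute value, 10.2, exceeds 4.82, the limit of 16-bit signals in that base. With natural logarithms, whose limit is 11.09, the folds given here would be too small. The ratio was read as sample over pool, after the dyes in the labels. The 7 arrays held 39037 to 42034 values each, their number limits the precision, and 10625 genes were tested. Hsf1 itself had 0 probes that list a single gene, so the genotype labels could not be checked on its transcript.

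In the late WT arrays 382 genes were higher than at 0 h (3.6% of the genes tested) and 390 were lower (3.67%), by limma with a Benjamini-Hochberg adjusted p below 0.05. An unadjusted p below 0.05 was reached by 2605 genes. The genes that rose did so by a median log2 of 1.02, and 39 rose by more than 2. The genes that fell did so by a median of 0.82 on the log2 scale, and 4 fell by more than 2. The median of all genes was -0.02. All late arrays lay above all 0 h arrays for 371 of the risers and below them for 370 of the fallers. These genes were called on the same arrays, so the separation is not independent of the calls. Over all genes tested the late arrays lay all above in 9.42% and all below in 10.6%. The counts depended on single arrays. Without the 6 h or the 8 h array 233 and 188 genes rose, and without the 4, 6 or 8 h array 223, 204 and 197 fell. With each of the 7 arrays left out in turn and under 3 other normalizations, 133 of the risers and 84 of the fallers kept their call. These are called held calls, and a single gene is said to have risen or fallen below where it is one of them. Other genes past the threshold are called higher or lower. Under all 16 alternatives run, 81 risers and 27 fallers kept their call. Held risers that did not pass in a fit of the 7 arrays alone included Hspa2, Hspa8, Hspb8, Cryab, Hspd1, Cacybp and Zfand2a (limma adjusted p from 0.0512 to 0.0882). Held fallers that did not pass there included Cks2, Anln, Gmnn, Ccng1, Arpc1a, Sf3b2, Ndufa9, Thbs1, Hnmt, Lypla2, Snx12 and Exoc3 (0.0509 to 0.107).

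Some chaperone genes rose, most of all the inducible HSP70. Of 63 measured members of 5 chaperone lists 18 were higher and 0 lower (28.6% higher, against 3.6% of all genes), and 12 of the 18 were held calls. The cytosolic HSP70 and HSP110 chaperones, which bind unfolded stretches of proteins, had 6 of 9 measured members higher, with a list median of 1.68 against -0.02 for all genes. Hspa1a, the stress-inducible HSP70, stood at 6.29, 5.03, 6.40 and 5.61 on the arrays of 3, 4, 6 and 8 h, against 0.16, -0.28 and 0.12 at 0 h. Every late array lay far above every 0 h array, and the difference was 5.83 ± 0.75 (SE, n = 4 against 3, 57-fold, limma adjusted p = 0.00184). Hspa1b encodes an almost identical protein, and its probe can bind Hspa1a transcripts, so it is not independent. It read 5.64, 4.58, 6.05 and 4.85, against 0.01 and -0.01 on the 2 unshocked arrays with a value, a difference of 5.28 ± 0.74 (adjusted p = 0.00233). Its call could not be tested without either of these 0 h arrays.

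Other members of the HSP70 family rose by smaller amounts. Hsph1, an HSP110 that exchanges the nucleotide of HSP70, read 2.53, 2.08, 2.39 and 2.27 at 3, 4, 6 and 8 h, against -0.21, -0.05 and 0.26 at 0 h. Its late values were close together, and the difference was 2.32 ± 0.37 (4 probes, 2.14 to 2.72, adjusted p = 0.00269). Hspa2, a relative best known from the testis, read 1.91, 0.91, 2.56 and 1.33, a difference of 1.68 ± 0.33, adjusted p = 0.00761. Hspa8, the HSP70 that unstressed cells already make, read 1.42, 0.64, 1.28 and 0.65, lower at 4 and 8 h than at 3 and 6 h, with a difference of 1.00 ± 0.20, adjusted p = 0.00792. All of their late arrays lay above all 0 h arrays. Hspa4l, an HSP110 relative, was higher by 1.85 ± 0.48, adjusted p = 0.0292, but it was not a held call and its groups overlapped. The members that did not pass were Hspa4 (-0.39), Hspa13 (-0.46) and Hspa14 (-0.40).

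J-domain proteins stimulate the ATP hydrolysis of HSP70, and 3 of 20 measured J-domain and nucleotide exchange genes were higher, with a median of 0.20. Dnajb1, the stress-inducible HSP40, read 2.50, 1.64, 2.37 and 1.95, against 0.06, -0.22 and 0.16 at 0 h. The groups were far apart, with the 4 h array lowest among the late ones, and the difference was 2.11 ± 0.25 (3 probes, 1.96 to 2.29, adjusted p = 0.00121). Dnaja1 rose by 1.05 ± 0.21, adjusted p = 0.00887, with late values of 1.22, 1.11, 0.86 and 1.01. Dnajb4 was higher by 1.16 ± 0.28, adjusted p = 0.0215, a call lost without the 0 h array #1 (adjusted p = 0.0577). Bag3, which links HSP70 to the clearance of aggregates, did not pass (0.52 ± 0.46, adjusted p = 0.518), and its late arrays read 0.52, 0.31, 0.70 and 0.54 against -1.12, 0.96 and 0.16 at 0 h.

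HSP90 matures kinases and receptors with the help of co-chaperones, and 3 of 12 measured members of that list were higher (median 0.14). Hsp90aa1, the inducible HSP90, stayed nearly level, at 1.38, 1.33, 1.35 and 1.38 across the late window against 0.26, -0.09 and -0.16 at 0 h. The difference was 1.36 ± 0.19 over 11 probes, which ranged from -0.02 to 1.65 (adjusted p = 0.00184). Chordc1, a co-chaperone of HSP90, was higher by 1.31 ± 0.35, adjusted p = 0.0319, without being a held call. Cacybp rose by 0.69 ± 0.14, adjusted p = 0.00921, over 4 probes that ranged from -0.28 to 1.12, and with 1 probe per gene, at -0.28, it did not pass. The classical co-chaperones Stip1 (0.39), Fkbp4 (0.21), Ahsa1 (0.01) and Cdc37 (-0.15) did not pass.

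Small heat shock proteins hold unfolding proteins without using ATP, and 3 of 7 measured members were higher (median 0.35). Cryab, the alpha-B crystallin of lens and muscle, read 1.08, 0.60, 1.13 and 1.21, against 0.01, -0.15 and 0.14 at 0 h. All late arrays were above all 0 h arrays, with 4 h lowest, and the difference was 1.01 ± 0.17 (3 probes, adjusted p = 0.00378). Hspb8, a partner of Bag3, read 1.38, 0.71, 1.23 and 1.06 and rose by 1.09 ± 0.20, adjusted p = 0.0054. Hspb1 was higher by 1.81 ± 0.40, adjusted p = 0.0124, a call lost without the 0 h array #3 (adjusted p = 0.0529), and its 2 probes gave 0.28 and 3.34.

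The chaperonin of the mitochondrial matrix rose as well. Hspe1, its lid, read 1.22, 0.83, 1.15 and 1.16 (difference 1.09 ± 0.22, adjusted p = 0.00862, 3 probes, 0.31 to 1.59), and Hspd1, its barrel, read 0.78, 0.77, 0.85 and 0.94 (difference 0.84 ± 0.18, adjusted p = 0.0109). Both genes had all late arrays above all 0 h arrays. The probes of Hspd1 ranged from -0.10 to 1.49. With 1 probe per gene Hspe1 was at 0.31 and did not pass (adjusted p = 0.495). The matrix protease Lonp1 was the third of 15 measured mitochondrial members to be higher (1.36 ± 0.35, adjusted p = 0.0289), and it was not a held call. The list median was -0.03, and the matrix HSP70, Hspa9, stood at -0.05 (adjusted p = 0.934). On the early arrays of 0.5, 1 and 2 h, given without a test, the values were 0.58, 4.55 and 5.80 for Hspa1a, 1.16, 2.06 and 2.14 for Dnajb1, 0.05, 0.51 and 1.04 for Hsp90aa1 and -0.17, -0.15 and 0.26 for Cryab.

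**Figure D1:**
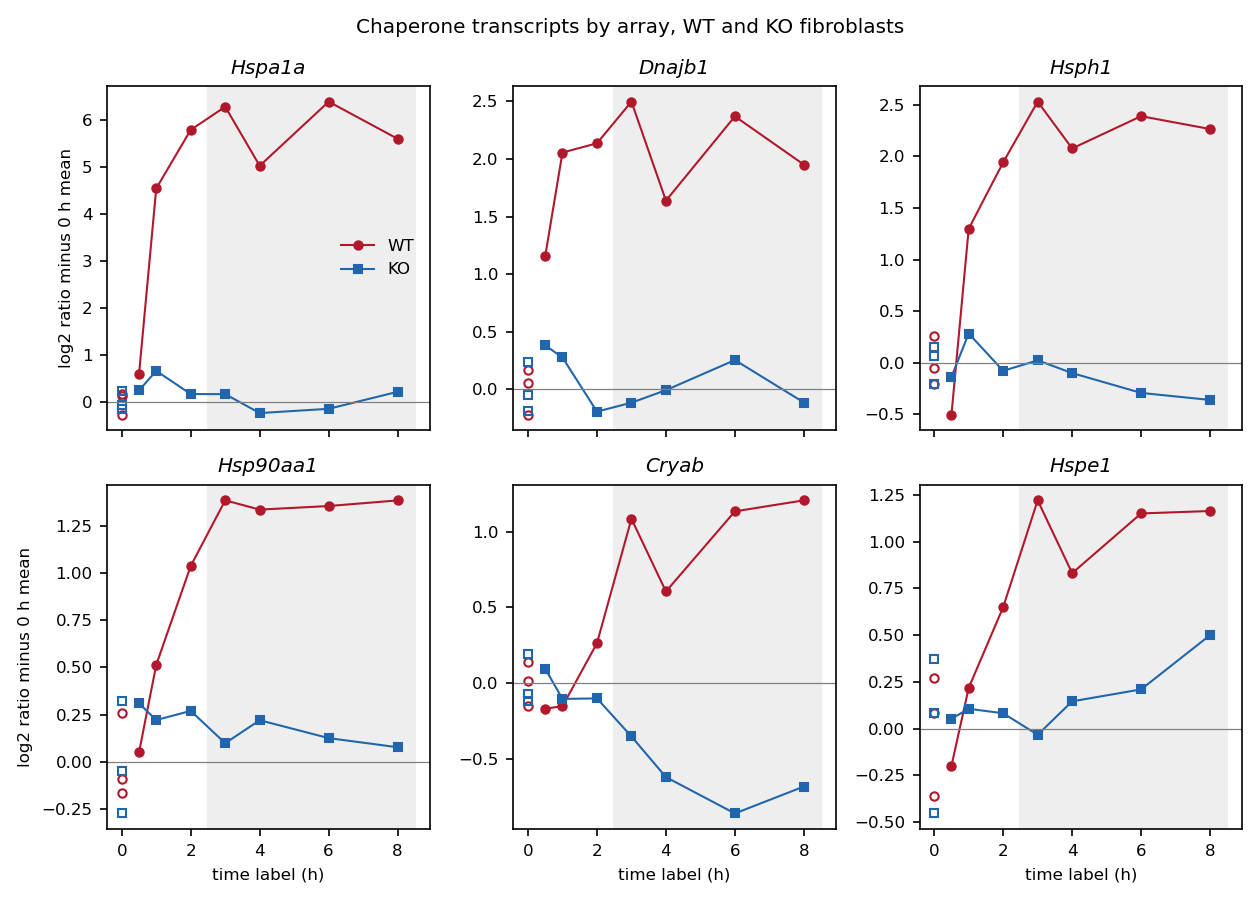
Log2 ratio of 6 chaperone genes on every array (vertical axes, each gene with its own scale) against the time label (horizontal axis, hours), relative to the 0 h mean of the same genotype. Red circles are WT and blue squares KO, open symbols are the 3 arrays of 0 h, each filled symbol is 1 array, and grey marks 3 to 8 h. The WT points of 3 to 8 h lie above all WT points of 0 h for each gene, with Hspa1a between 5.03 and 6.40.

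Promoter sequences of RefSeq (build GRCm38.p6, the 250 bases before each annotated start) were searched for the heat shock element, to show what the genes that rose carry there. A full element was 3 alternating units of GAA and TTC, starting with either and separated by any 2 bases. A pair was 2 such units, GAA then TTC or TTC then GAA, again separated by any 2 bases; every full element contains a pair, and each motif reads the same on both strands or is matched by its other form. Of 8572 tested genes with a promoter entry 36 held the full element (0.42%) and 1040 held the pair of units (12.1%). Among the chaperone genes that were higher, 15 had an entry, of which 2 held the full element and 8 the pair. Among the other chaperones measured these numbers were 1 and 5 of 35. Over all genes the pair stood in 50 of 307 genes that were higher (16.3%) and in 46 of 317 that were lower (14.5%). Among held calls it stood in 24 of 104 risers (23.1%) and in 11 of 70 fallers (15.7%). These shares were not tested against each other. The windows below run 5′ to 3′ on the strand of the gene, with the matched stretch in capitals and 12 bases on each side. They are those of chaperones described above that hold a match and of Zfand2a, and they show how the repeats are laid out. The Dnajb4 window is cut at the base before the start. A match is a description of letters and does not show binding.
Hspa1a: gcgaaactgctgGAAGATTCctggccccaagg
Hsph1: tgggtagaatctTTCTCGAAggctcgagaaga
Dnaja1: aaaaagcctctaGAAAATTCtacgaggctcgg
Dnajb4: gttcgttcgctgTTCTAGAAagtaca
Hspb1: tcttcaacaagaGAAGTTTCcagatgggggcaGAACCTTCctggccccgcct
Hspe1: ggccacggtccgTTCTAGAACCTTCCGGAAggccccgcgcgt
Zfand2a: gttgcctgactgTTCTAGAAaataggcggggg
The windows lie at chr17:34972241-34972272 (Hspa1a, minus strand), chr5:149636350-149636381 (Hsph1, minus strand), chr4:40722332-40722363 (Dnaja1, plus strand), chr3:152193846-152193871 (Dnajb4, minus strand), chr5:135887790-135887841 (Hspb1, plus strand), chr1:55088047-55088088 (Hspe1, plus strand) and chr5:139484668-139484699 (Zfand2a, minus strand), all upstream of the start. The Hspa1b window has the same letters as that of Hspa1a, at chr17:34959323-34959354. Hspe1 and Hspd1 are transcribed away from each other, and the full elements of Hspd1 are those of Hspe1 read on the other strand, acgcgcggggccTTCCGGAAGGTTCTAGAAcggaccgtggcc. No match was found for Dnajb1, Hspa2, Hspa4l, Chordc1, Cacybp, Hspb8 or Lonp1 in their windows, which says only that these letters are not there. Hspa8, Hsp90aa1 and Cryab were not matched to an entry.

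Other folding systems gave few calls, where 3.6% of all genes were higher and 3.67% lower. CCT and prefoldin, the machinery for folding new actin and tubulin chains, had 0 of 13 measured members called in either direction by limma (4 at an unadjusted p below 0.05), a median of -0.31 and list medians of -0.11, -0.42, -0.22 and -0.41 on the 4 late arrays. Of 28 ER chaperones and unfolded protein response genes 0 were higher and 1, the translocon subunit Sec61b, was lower (-0.55 ± 0.16, adjusted p = 0.0461, not a held call). Hspa5, the HSP70 of the ER, stood at 0.11 ± 0.19 over 10 probes (adjusted p = 0.756). Serpinh1, the collagen chaperone of the ER also known as HSP47, was higher by 0.63 ± 0.18, adjusted p = 0.0465, although it was not a held call and its 5 probes ranged from -0.03 to 2.26. Of 16 genes of the amino acid stress response driven by ATF4 only the transporter subunit Slc3a2 was called (0.59 ± 0.16, adjusted p = 0.0383, not held). The median of that list was 0.27.

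**Figure D2:**
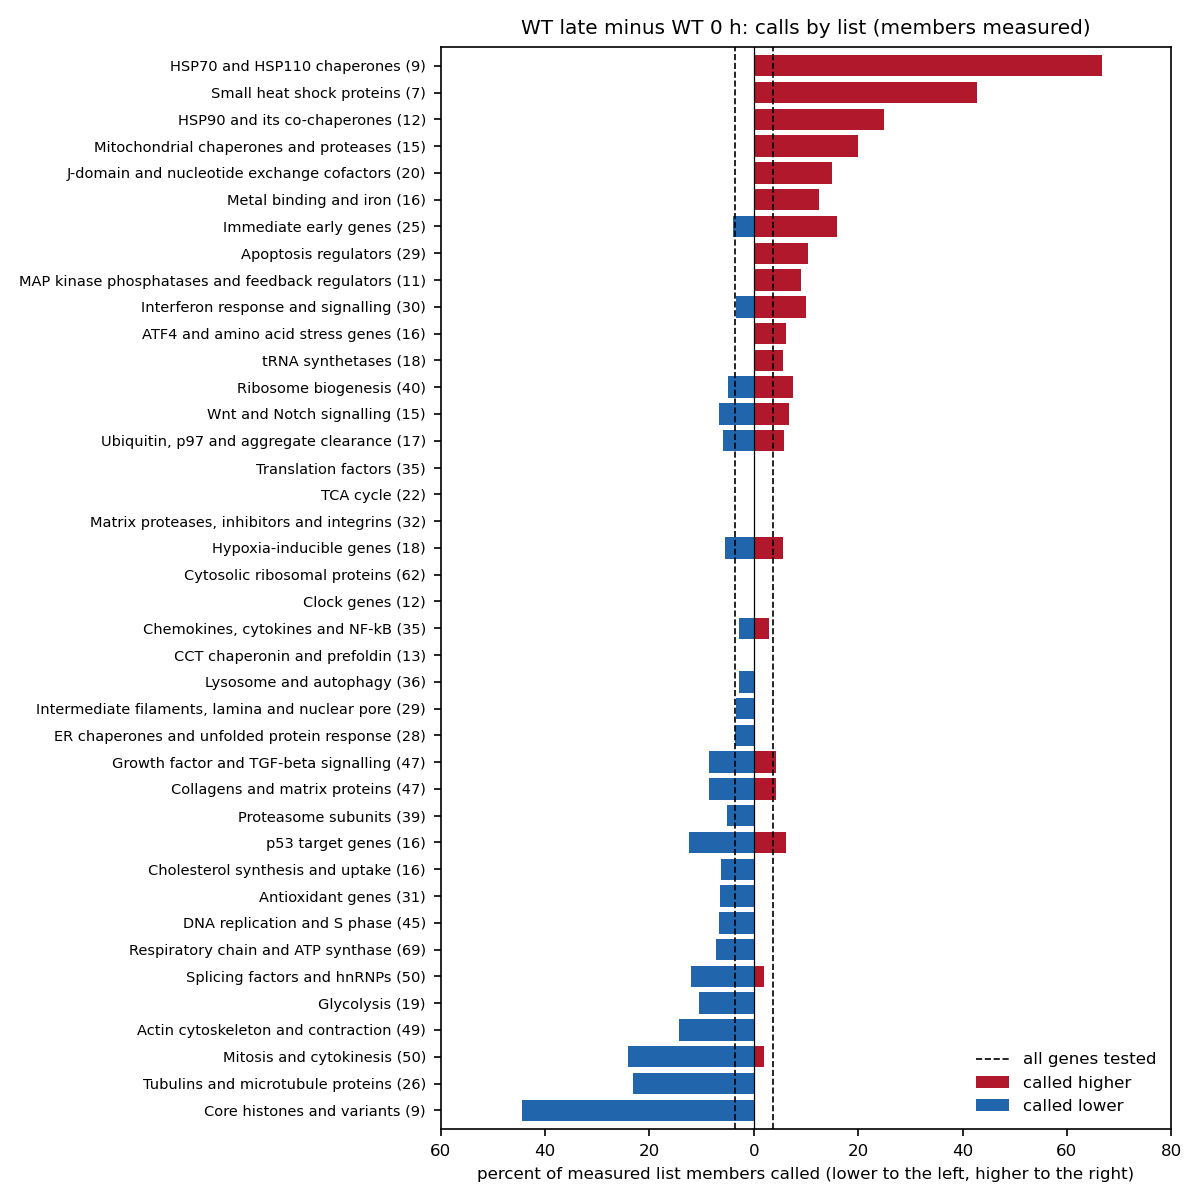
Percent of the measured members of each of 40 functional lists that were called higher (red, to the right) or lower (blue, to the left) in late WT arrays, with the number measured in parentheses. Dashed lines mark the shares among all genes tested, 3.6% and 3.67%; HSP70, small heat shock protein and HSP90 lists extend furthest to the right and core histones, mitosis and tubulin lists furthest to the left.

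Regulators of the stress response rose in part. Of 25 immediate early genes, whose transcripts respond within minutes to many stimuli, 4 were higher and 1 lower. The shares among all genes were 3.6% and 3.67%, and the list median was 0.20. The count of higher members was 1 without the 0 h array #1 and 2 without the 8 h array. Atf3, a transcription factor of stressed cells, read 2.11, 1.56, 1.90 and 1.34, against -0.18, 0.12 and 0.06 at 0 h. All late arrays were above all 0 h arrays, and the rise was 1.73 ± 0.30 (4 probes, 0.71 to 2.22, adjusted p = 0.00382). Csrnp1 (1.58 ± 0.37, adjusted p = 0.019), Fosl1 (0.94 ± 0.23, adjusted p = 0.0204) and Zfp36 (1.22 ± 0.31, adjusted p = 0.0264), which destabilises cytokine mRNAs, were higher without being held calls. Btg2, which restrains proliferation, was lower (-0.96 ± 0.27, adjusted p = 0.044), its groups overlapped, and the call was lost when any of 5 arrays was left out and under all 3 other normalizations. With probes filtered on the WT groups alone Btg2 stood at -0.026 (adjusted p = 0.976). Fos and Egr1 did not pass (0.63 and 0.75).

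Metallothioneins, small proteins that bind zinc and copper, rose. Mt2 read 2.70, 2.76, 2.96 and 2.85 across the late window, against -0.29, -0.05 and 0.34 at 0 h. The late arrays were nearly level, and the difference was 2.82 ± 0.45 (2 probes, adjusted p = 0.00269). Mt1 read 1.69, 1.22, 1.44 and 1.52 and rose by 1.47 ± 0.25, adjusted p = 0.00382, over 4 probes that ranged from 0.21 to 2.21. The sequences of these genes are alike enough that their probes may bind both. The other 14 measured genes of metal binding and iron did not pass, and the list median was -0.10. Of 31 antioxidant genes 0 were higher and 2 were lower (against 3.6% and 3.67% of all genes), neither a held call, with a median of -0.27. The heme oxygenase Hmox1, a common marker of oxidative stress, stood at 0.12 ± 0.27 (adjusted p = 0.817).

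Single genes of protein clearance, survival and the p53 pathway rose or fell, where 3.6% of all genes were higher and 3.67% lower. Zfand2a, a protein that binds the proteasome under stress, read 1.72, 0.83, 1.42 and 1.20, against 0.28, 0.00 and -0.28 at 0 h. The groups did not overlap, and the rise was 1.29 ± 0.25 (1 probe, adjusted p = 0.00618). It was the 1 riser among 17 measured genes of ubiquitin, p97 and aggregate clearance. Of the same list 1 gene, Ubqln2, was lower without being a held call, and the list median was -0.14. Birc6, an inhibitor of apoptosis, rose by 1.19 ± 0.23, adjusted p = 0.00618, over 3 probes of 0.03 to 2.64. Mcl1 (0.81 ± 0.19, adjusted p = 0.0187) and Cflar (0.67 ± 0.19, adjusted p = 0.0418), which also protect from apoptosis, were higher without being held calls, and the other 26 of 29 apoptosis regulators did not pass. With the 8 h array or any 0 h array left out, 1 of the 3 passed. Among 16 p53 targets Ccng1, a cyclin, read -0.60, -0.98, -0.99 and -0.68 and fell by 0.81 ± 0.14, adjusted p = 0.00406, on the log2 scale, a call lost with 1 probe per gene (adjusted p = 0.0872). Mdm2, the ligase that degrades p53, was higher (0.72 ± 0.17, adjusted p = 0.0206), a call lost without the 0 h array #1 (adjusted p = 0.0852) or the 8 h array, and Cdkn1a did not pass (-0.31).

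The numbers of calls in both directions depended on how the spread of the arrays was treated. The spread of log ratios within an array, as the median absolute deviation, was 1.08 to 1.12 at 0 h and 1.10, 0.814, 0.904 and 0.919 at 3, 4, 6 and 8 h. Genes above the array median on the KO 0 h arrays, which this comparison did not use, were lower in late WT cells in 6.63% of cases and higher in 2.78%. For genes below that median the shares were 1.08% and 4.31%. When every array was scaled to the same spread, 147 genes were lower and 224 higher, against 390 and 382 without scaling. The part of the narrower arrays in the rises and the falls was not tested. Counts after scaling are given below beside the groups that fell.

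Some histone and mitosis genes were lower. Of 9 measured core histones and variants 4 were lower and 0 higher (median -0.49, 3 lower after scaling, and 2 without the 0 h array #1). Among all genes 3.67% were lower and 3.6% higher. H2ac8 was lower too, but with 1 probe per gene it stood at 0.75 (adjusted p = 0.0912). Outside the list and the naming rule, the histone variant H2aj rose by 0.86 ± 0.18 (3 probes, adjusted p = 0.0104). H2ax, the variant that marks broken DNA when phosphorylated, read -1.39, -1.33, -1.38 and -1.74, against -0.02, 0.22 and -0.21 at 0 h. The groups were wide apart, and it fell by 1.46 ± 0.24 on the log2 scale (1 probe, adjusted p = 0.00316). H3f3b, a replacement histone made throughout the cell cycle, read -0.75, -1.34, -1.30 and -1.16 and fell by 1.14 ± 0.19, adjusted p = 0.00378, over 7 probes. Of 50 mitosis and cytokinesis genes 12 were lower and 1, the protease Espl1, was higher (median -0.42). The 12 became 7, 6 and 7 without the 0 h array #1, the 6 h array or the 8 h array, and 4 after scaling. The kinesin Kif22 read -1.27, -1.60, -1.22 and -1.18 and fell by 1.32 ± 0.25, adjusted p = 0.00618. Cks2, a subunit of mitotic kinases, read -0.75, -1.37, -1.17 and -0.93 and fell by 1.05 ± 0.19, adjusted p = 0.0043. Anln, which organises the cleavage furrow, fell by 0.94 ± 0.20, adjusted p = 0.00988, a call lost with 1 probe per gene (adjusted p = 0.141). All late arrays of these 3 genes lay below all 0 h arrays. Cdk1 (-0.84), the main mitotic kinase, and Cks1b (-0.75) also passed but did not after scaling, whereas Mki67 (-0.76), Plk1 (-0.66) and Top2a (-0.25) did not pass at all.

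Genes of DNA replication gave few calls. Of 45 measured members 3 were lower and 0 higher, against 3.67% and 3.6% of all genes (median -0.17, 1 lower after scaling, 5 without the 3 h array). Gmnn, which blocks relicensing of origins, read -0.61, -1.07, -1.21 and -1.17 and fell by 1.01 ± 0.18, adjusted p = 0.00426, over 3 probes, and with 1 probe, at -0.68, it did not pass (adjusted p = 0.0567). Orc5 (-0.80) and Pole2 (-0.52) were lower without being held calls. Fbxo5, also known as Emi1, an inhibitor of the anaphase-promoting complex, read -0.85, -1.04, -0.95 and -0.84, against 0.04, -0.05 and 0.01 at 0 h. Its groups did not overlap, and it fell by 0.92 ± 0.16, adjusted p = 0.00378.

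Some cytoskeleton genes were lower as well (3.67% of all genes were lower and 3.6% higher). Of 49 genes of the actin cytoskeleton 7 were lower and 0 higher (median -0.36), which became 2 after scaling and 3 without the 0 h array #1 or #3, the 4 h or the 8 h array, and 4 without the 6 h array. Coro1c, a coronin that binds actin filaments, read -0.82, -1.43, -1.24 and -1.34 and fell by 1.21 ± 0.22, adjusted p = 0.00525. Arpc1a, a subunit of the Arp2/3 complex that branches filaments, read -1.08, -0.95, -0.62 and -0.75 and fell by 0.85 ± 0.16, adjusted p = 0.00578, over 3 probes of -1.31 to -0.49. With 1 probe per gene Arpc1a was at -0.49 and did not pass (adjusted p = 0.165). Beta-actin itself, Actb, was lower by 0.78 ± 0.22, adjusted p = 0.0406, over 13 probes, and that call was lost with any of 6 arrays left out and under all 3 other normalizations (-0.40 after scaling). Of 26 tubulins and microtubule proteins 6 were lower and 0 higher (median -0.41). None of the 6 passed after scaling, and 2 passed without the 0 h array #3, the 4 h or the 8 h array. Tuba1b read -0.83, -1.54, -1.13 and -1.54 and Tubb5 -0.71, -1.15, -0.70 and -0.99, with differences of -1.26 ± 0.32, adjusted p = 0.0264, and -0.89 ± 0.18, adjusted p = 0.00977. Neither is a held call. The alpha-tubulin genes are nearly identical, so their probes are not independent.

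**Figure D3:**
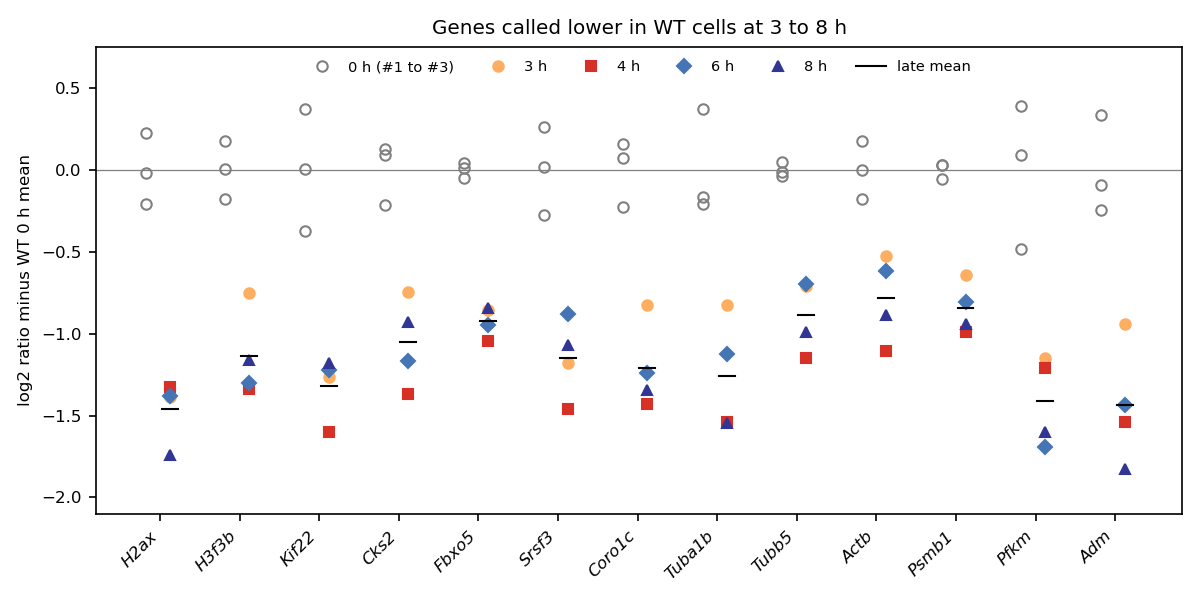
Log2 ratio relative to the WT 0 h mean (vertical axis) of 13 genes that were called lower, with 1 point per array. Open grey circles are the arrays of 0 h, filled symbols are the arrays of 3, 4, 6 and 8 h and the bar is their mean; for each gene all late points lie below all 0 h points.

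RNA processing, protein turnover and energy genes gave some calls. The counts stand against 3.67% lower and 3.6% higher among all genes, and those of the proteasome and hypoxia lists lie near these shares. Of 50 splicing factors and hnRNPs 6 were lower and 1 higher (median -0.18, and 2 lower and 1 higher after scaling). Srsf3, a splicing factor of the SR family, read -1.18, -1.46, -0.88 and -1.07, against -0.28, 0.26 and 0.02 at 0 h. It fell by 1.15 ± 0.18 over 10 probes that ranged from -1.44 to -0.85 (adjusted p = 0.00269). Sf3b2, part of the U2 particle, fell by 0.73 ± 0.15, adjusted p = 0.00867, over 8 probes. Of 39 proteasome subunits 0 were higher and 2 lower (median -0.40, 1 lower after scaling, 7 without the 3 h array and 1 without the 4 h or 8 h array). Psmb1 read -0.64, -0.99, -0.81 and -0.94 and fell by 0.84 ± 0.18, adjusted p = 0.0109. Of 69 genes of the respiratory chain and ATP synthase 5 were lower (median -0.28). They were 1 after scaling, 11 without the 3 h array, and 1 without the 0 h array #1 or #3 or the 4, 6 or 8 h array. Ndufa9, a subunit of complex I, fell by 0.68 ± 0.14, adjusted p = 0.0103. In glycolysis 2 of 19 were lower (1 after scaling), among them the phosphofructokinase Pfkm, which read -1.15, -1.21, -1.69 and -1.60 and fell by 1.41 ± 0.28, adjusted p = 0.00702. Of 18 hypoxia-inducible genes 1 was higher and 1 lower (0 and 1 after scaling). The carbonic anhydrase Car9 was higher (0.78 ± 0.23, adjusted p = 0.0484, not held), whereas Adm, the vasodilator adrenomedullin, read -0.94, -1.54, -1.43 and -1.82 and fell by 1.44 ± 0.28, adjusted p = 0.00666.

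Genes of translation gave few calls, where 3.6% of all genes were higher and 3.67% lower. Of 62 cytosolic ribosomal proteins and 35 translation factors 0 passed limma's threshold in either direction, while 8 and 7, all lower, had an unadjusted p below 0.05. The median of the ribosomal proteins was -0.24, with 0.05, -0.56, -0.17 and -0.21 at 3, 4, 6 and 8 h against 0.03, -0.16 and 0.12 at 0 h. After scaling of array spread it was 0.03, so its sign turned. Translation factors had -0.21, which was 0.03 after scaling. Of 40 listed ribosome biogenesis genes 3 were higher and 2 lower, none of them a held call (1 and 0 after scaling). The 3 became 0 without the 6 h or the 8 h array and 1 without the 0 h array #1 or #2. The list does not hold every such gene. Outside it and the naming rule, and chosen after their values were seen, Nol9 (2.13 ± 0.41), Mdn1 (1.38 ± 0.25) and Rrp36 (0.79 ± 0.17) were held risers. Fallers outside the list were not surveyed. Of 18 tRNA synthetases 1, the leucine enzyme Lars, was higher (1.12 ± 0.32, adjusted p = 0.0428, 1 probe), a call lost with any of 5 arrays left out and after scaling. The TCA cycle (median -0.25), clock genes (-0.09), and matrix proteases, inhibitors and integrins (-0.25) gave 0 calls among 22, 12 and 32 measured genes, with 4, 1 and 9 at an unadjusted p below 0.05.

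**Figure D4:**
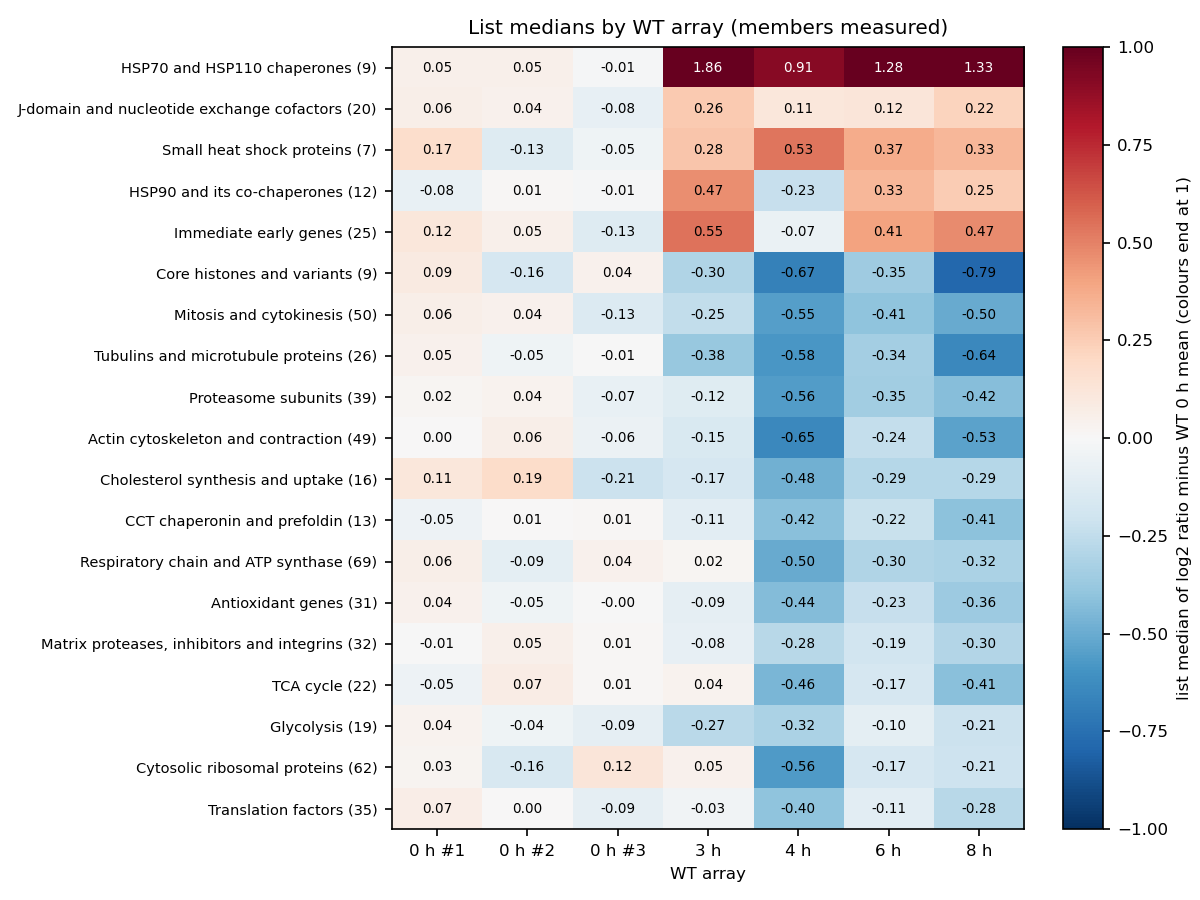
Median log2 ratio of the measured members of 19 lists on each of the 7 WT arrays, relative to the WT 0 h mean (red higher, blue lower, colours end at 1). HSP70 and HSP110 chaperones stand at 0.91 to 1.86 on the late arrays, and most falling lists are lowest at 4 h, where mitosis genes reach -0.55.

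Matrix and signalling lists gave some calls in both directions. Among all genes 3.6% were higher and 3.67% lower. Of 47 collagens and matrix proteins 2 were higher and 4 lower (median -0.19, and 3 and 1 after scaling; 9 lower without the 3 h array, and 1 without the 0 h array #1 or the 8 h array). Thbs1, thrombospondin 1, fell by 0.85 ± 0.17, adjusted p = 0.00737, with late values of -0.38, -0.93, -0.92 and -1.15. Of 47 genes of growth factor and TGF-beta signalling 2 were higher and 4 lower (3 and 1 after scaling, 1 lower without the 0 h array #1, the 6 h or the 8 h array, 2 without the 0 h array #2). Tgfbi, a matrix protein induced by TGF-beta, read 2.36, 1.98 and 1.81 at 3, 6 and 8 h, with no value at 4 h, and rose by 2.05 ± 0.44, adjusted p = 0.0118. Smad7, an inhibitor of that pathway, was higher by 1.40 ± 0.32, adjusted p = 0.0167, a call lost without the 0 h array #3 (adjusted p = 0.0573). Jag1, a ligand of Notch, had a mean rise of 2.42 ± 0.47, adjusted p = 0.00656, that rests on 1 of its 2 probes, which gave 5.75 and -0.01. Of 30 interferon genes 3 were higher and 1 lower (3 and 0 after scaling). Ifnar1, a chain of the type I interferon receptor, read 1.67, 1.24, 1.76 and 1.88 and rose by 1.64 ± 0.31, adjusted p = 0.00575, and Irf9, which carries its signal to the nucleus, read 1.56, 0.77, 1.55 and 1.52 and rose by 1.35 ± 0.27, adjusted p = 0.00809. All late arrays of both genes were above all 0 h arrays.

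Of the 15 largest rises 14 rest on 1 probe. For 8 of them, Kif28, Efhb, P3h3, Zfp12, Noxred1, Loxl2, 2500004C02Rik and 4732419C18Rik, a rise was called in KO cells too. Their products are known for unrelated roles, among them a collagen prolyl hydroxylase family member (P3h3), a lysyl oxidase that cross-links collagen (Loxl2), a kinesin (Kif28) and a zinc finger protein (Zfp12). Across these 8 genes the WT values spanned 2.61 to 3.74 at 3 h, 1.56 to 2.35 at 4 h, 2.60 to 3.45 at 6 h and 3.00 to 3.62 at 8 h. All were lowest at 4 h within the late window. In KO cells the same genes read 1.92 to 2.99, 2.58 to 3.38, 2.84 to 4.48 and 3.58 to 4.67 at these times. The WT rise minus the KO rise lay between -0.78 and 0.08 for these genes, with adjusted p from 0.815 to 0.987.

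The other 7 of the largest rises were not called in KO cells. They were Hspa1a, Hspa1b, Mt2, Nfkbiz, Chrd, H2-Ob and Csf2rb2. The lack of a call in KO cells is not a difference between the genotypes. That difference passed for Hspa1a and Hspa1b alone, and across the 7 genes its adjusted p ran from 0.0438 to 0.7. Mt2 stood at 1.14 in KO cells (adjusted p = 0.114), and its difference was 1.68 (adjusted p = 0.484). Chrd, an antagonist of bone morphogenetic proteins, read 2.99, 1.93, 3.07 and 2.93, against 0.09, -0.30 and 0.21 at 0 h. The naming rule required groups that do not overlap, and 4 h was lowest among the late arrays. The rise was 2.73 ± 0.43 (1 probe, adjusted p = 0.00269), while KO cells stood at 0.14 ± 0.43 (adjusted p = 0.89). The difference between the genotypes did not pass for Chrd (2.59 ± 0.61, adjusted p = 0.192). Nfkbiz, a regulator of NF-kB target genes, was higher by 3.82 ± 0.82, adjusted p = 0.012, but its 2 values at 0 h were -1.70 and 1.70. It was not a held call, because it could not be tested without either of these 0 h arrays. H2-Ob (2.87 ± 0.75, adjusted p = 0.0359) and Csf2rb2 (2.72 ± 0.79, adjusted p = 0.0492) had similarly wide 0 h values, of 1.49 and -1.49 and of 0.92, 0.89 and -1.80, and were not held calls. Other held risers not called in KO cells, chosen after their values were seen, were Uspl1 (2.24 ± 0.29, KO 0.49), Ccdc117 (1.65 ± 0.27, KO 0.08) and Arhgap19 (1.68 ± 0.23, KO 0.07), each on 1 probe. The difference between the genotypes did not pass for Uspl1 (adjusted p = 0.192), Ccdc117 (0.211) or Arhgap19 (0.0905). Uspl1 read 2.22, 1.66, 2.45 and 2.65 on the late arrays. Ccdc117 read 1.98, 1.29, 1.78 and 1.54. Arhgap19 read 1.47, 1.87, 2.03 and 1.34, and for all 3 genes every late array lay above every 0 h array.

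Probes that name no gene entered no gene value. Of 18490 such probes 1597 were called higher (8.64%) and 395 rose by more than 2, against 755 of 20881 probes of a single gene (3.62%) and 160. These shares are over probes and were not tested against each other.

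**Figure D5:**
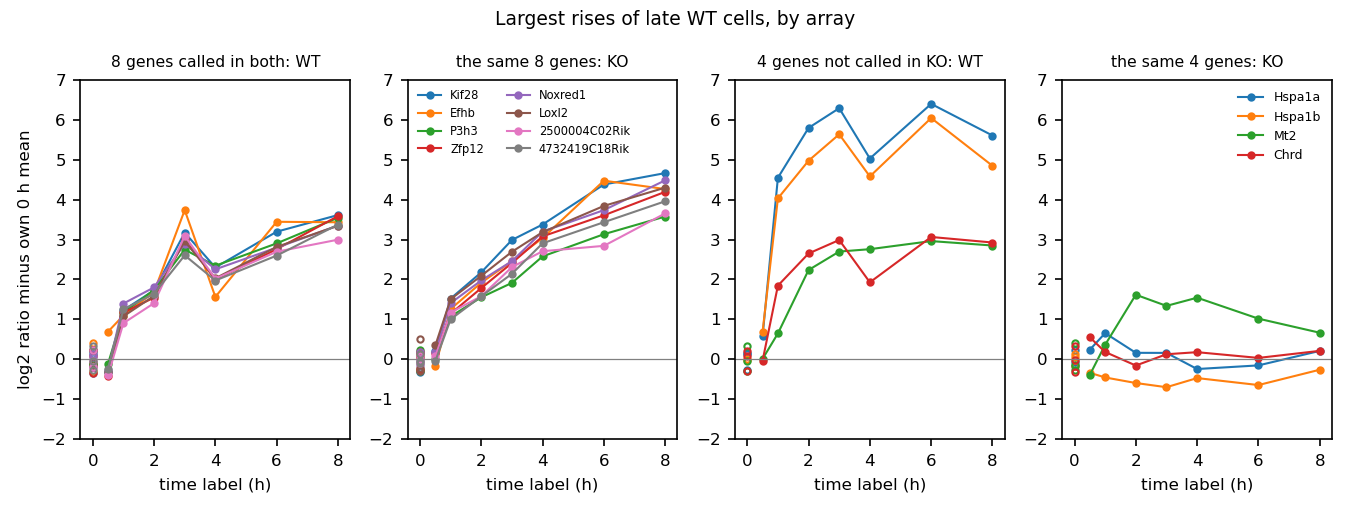
Log2 ratio relative to the 0 h mean of the same genotype (vertical axes) against the time label in hours, 1 line per gene, with open circles for the 3 arrays of 0 h. The left pair of panels shows the 8 large rises called in both genotypes, which reach 3.00 to 3.62 in WT and 3.58 to 4.67 in KO cells at 8 h. The right pair shows 4 large rises that were not called in KO cells. Of these the difference between the genotypes passed for Hspa1a and Hspa1b, and not for Mt2 and Chrd.

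The largest falls were mostly on 1 probe (10 of 15). The 2 largest, Rcan2 (-2.63), a regulator of calcineurin, and Serpinb3a (-2.50), a protease inhibitor, were not held calls. Rcan2 kept its call with each of 5 arrays left out and could not be tested without the others. Serpinb3a lost its call without the 0 h array #1 (adjusted p = 0.0623). Aif1l, an actin-bundling protein, read -2.18, -2.04, -2.86 and -1.92, against -0.19, -0.64 and 0.83 at 0 h. It fell by 2.25 ± 0.34, adjusted p = 0.00269, but its 2 probes gave -4.06 and -0.45. Hnmt, which inactivates histamine, read -1.76, -2.07, -1.92 and -1.49 and fell by 1.81 ± 0.34, adjusted p = 0.00589, with a wide spread of 1.06, -1.16 and 0.10 at 0 h. Lypla2, a thioesterase that removes palmitate from proteins, fell by 2.36 ± 0.48, adjusted p = 0.00995. Ubald1 (-1.97), Snx12 (-1.95) and Exoc3 (-1.53), the last a subunit of the exocyst, were also held calls. The 2 probes of Ubald1 gave -3.11 and -0.83, and with 1 probe it did not pass (adjusted p = 0.0536), and those of Exoc3 gave -2.25 and -0.80. Zdhhc16, a palmitoyltransferase, fell by 1.48 ± 0.23, adjusted p = 0.00269, as a mean of 2 probes that moved apart, at -3.43 and 0.46. Of the 15 largest falls 2, Snx12 and H2ax, were also called lower in KO cells.

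Cells without HSF1 served as a comparison for which part of the late response differed between genotypes. In late KO cells 410 genes were higher (3.86%) and 723 lower (6.8%) than at KO 0 h. Of the 382 WT risers 197 were also called higher in KO cells (51.6% of the WT risers and 48% of the KO risers), and 356 had the same sign. Of the 390 WT fallers 177 were also called lower in KO cells (45.4% and 24.5%), and 356 had the same sign. The genotypes share the reference pool and no control array. Among held calls, 90 of 133 risers and 51 of 84 fallers were called the same way in KO cells, and 2 risers, Cryab and Hspb8, were called lower there. Late KO arrays also had a narrower spread, of 0.682 to 0.851, and the KO arrays of 0 h had 0.804 to 1.12.

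The late response itself differed between the genotypes for 10 genes (0.0941%; 8 higher, 0.0753%, and 2 lower, 0.0188%), out of 926 with an unadjusted p below 0.05. Chaperones made up 5 of them. For Hspa1a the KO arrays read 0.16, -0.24, -0.15 and 0.21, and the WT minus KO difference was 5.84 ± 1.06 (adjusted p = 0.0438). It was 5.80 ± 0.99 for Hspa1b (0.0438), 2.11 ± 0.35 for Dnajb1 (0.0402), 1.77 ± 0.29 for Hspb8 (0.0402) and 1.64 ± 0.24 for Cryab (0.036). The KO arrays of Cryab read -0.35, -0.62, -0.86 and -0.68, all below its WT values. None of the 18 higher chaperones was called higher in KO cells. Hsph1 (2.50 ± 0.52, adjusted p = 0.0933) and Hsp90aa1 (1.23 ± 0.27, adjusted p = 0.126) did not pass the test of the difference. For Rrm1, Islr and Lipa the difference came with a KO fall of -2.19, -1.49 and -1.21 and with WT values of -0.44, 0.07 and 0.17, which did not pass. When each gene was read from a single probe, the Rrm1 difference was 0.57 (adjusted p = 0.618), and of the 10 genes Zdhhc16 alone passed. Zdhhc16 and Fbxo5 fell in WT cells, while KO cells stood at 0.34 and 0.32. Without the WT array of 3 h, the one of 6 h or the 0 h array #3 none of the 10 passed. Of them 3 passed without the 4 h array, 4 without the 8 h array or the 0 h array #1, and 2 without the 0 h array #2, Hspa1b not being testable without #2 or #3. Across the 7 arrays left out, the adjusted p of Dnajb1 ranged from 0.0151 to 0.0966 and that of Hspa1a from 0.0644 to 0.116, while the Hspa1a difference stayed between 5.65 and 6.11.

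Within WT cells the late arrays were also set against the early ones. The 2 genes that differed (0.0188%; 1 in each direction, 0.00941%; out of 1527 with an unadjusted p below 0.05) were Slc12a7, a potassium chloride transporter, and Cyb561d1, a cytochrome b561 family member. Slc12a7 read -0.50, -0.25 and -0.23 at 0.5, 1 and 2 h and 0.90, 0.86, 1.10 and 0.50 in the late window. It was higher late by 1.17 ± 0.18 (adjusted p = 0.0461). Cyb561d1 read 0.93, 0.44 and 0.12 early and -0.54, -0.68, -0.54 and -0.94 late, a difference of -1.17 ± 0.19 (adjusted p = 0.0461). For neither gene did early and late values overlap. Slc12a7 did not pass without the 0 h array #2, the 3 h or the 6 h array, and Cyb561d1 not without these or the 8 h array (adjusted p from 0.0595 to 0.16). A slope over the 4 late times was called for 0 genes (0%) by limma, the single tool run, with 627 genes at an unadjusted p below 0.05.

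Markers of other cell types gave few calls, where 3.6% of all genes were higher and 3.67% lower. Ratios to a pool of fibroblast RNA do not show how much of a transcript is present, so the labelled cell type could not be checked by absence or presence. Of 10 fibroblast markers 1, the receptor gene Pdgfra, was lower (-0.63 ± 0.19, adjusted p = 0.0483, not held, 0 lower after scaling), with a list median of -0.38 and list medians of -0.23, -0.54, -0.40 and -0.61 on the late arrays. Of 12 macrophage markers Fcgr1, an antibody receptor, fell by 1.41 ± 0.24, adjusted p = 0.0038, over 2 probes of -2.75 and -0.20. The macrophage list as a whole did not fall, with a median of 0.30 and 9 members above 0 against 3 below. The tight junction gene Ocln rose among 13 epithelial markers (0.93 ± 0.20, adjusted p = 0.0109), and Retn was higher among 7 adipocyte markers (1.40 ± 0.36, adjusted p = 0.0268, not held). Endothelial (7 measured), muscle (8) and neural (8) markers gave 0 calls by limma, with medians of 0.19, 0.12 and 0.06 and with 1, 1 and 2 genes at an unadjusted p below 0.05. The part of other cells in the results was not tested. In these bulk samples fewer cells of a type and less RNA per cell cannot be told apart.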

How the data were processed

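The authors deposited 1 value table of two-colour array log ratios. The values are treated here as log2 of Cy5 (sample) over Cy3 (shared pool), per the labels' dyes; the log base, the background correction and the normalization are not given in the sources used here. A common scanner number stands in all array titles, and the labels name no batch. Each array was centred on its median. Probes with at least 2 values in each of 6 groups were kept (40453 of 42624), and of these 20881 listed a single gene in the platform annotation. A gene is the mean of its probes, each relative to its own mean (10625 genes, 5182 with 1 probe). Probes of near-identical genes can bind the same transcripts.

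Differences were tested with limma 3.58.1 in R 4.3.3 on group means over all 20 arrays, with Benjamini-Hochberg adjustment over all genes; the threshold was 0.05. The script was tested on simulated data. The number of arrays limits the precision, and depth in reads does not apply. WT late minus WT 0 h was the comparison of interest, beside late minus early, the slope over late times, and the difference of the late change between genotypes. Promoters are RefSeq's, build GRCm38.p6. Labelled numbers of 0 h arrays were checked for pairing: deviations of same-numbered WT and KO arrays correlated at -0.0194 to -0.00463, so they share only a number. WT and KO arrays of the same time correlated at -0.0227 to 0.0557.

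Genes named are the 15 largest rises and falls with late arrays all on one side of the 0 h arrays, up to 5 called members of each list by smallest p, up to 8 per direction in the other contrasts, and list members given as examples. Genes outside this rule are said to be so. The members and lists were chosen with earlier results of these data known. Alternatives were no centring, quantile normalization, equal array spread, other probe rules and filters, a replicate block, the 7 arrays alone, and each array left out.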

Additional observations from a re-analysis of the deposited data

Results flagged for a closer look

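Single late arrays stood apart for 10 of the 129 named genes that had a value on all 4 late arrays. The gap to the nearest late array was large against the range of the late arrays (Dixon's test), and chance gives about 1 in 20. The 4 h array was low for 3 risers: Efhb at 1.56 (the other late arrays 3.43 to 3.74), Chrd at 1.93 (2.93 to 3.07) and Irf9 at 0.77 (1.52 to 1.56). It was the highest of the late arrays for Ubqln2, at -0.58 (-0.88 to -0.85). The 3 h array was higher than the others for Dnajb4, at 1.50 (1.01 to 1.06), for Orc5, at -0.33 (-1.01 to -0.89), and for Ndufb4, at -0.26 (-0.72 to -0.66). The 6 h array was low for H2-Ob, at 2.51 (2.97 to 3.02). The 8 h array was high for Slc35a3, at -0.33 (-2.54 to -2.20), and low for H2ax, at -1.74 (-1.39 to -1.33).

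The late change differed between WT and KO cells by 5.84 for Hspa1a, 5.80 for Hspa1b, 2.11 for Dnajb1, 1.77 for Hspb8, 1.75 for Rrm1, 1.64 for Cryab, 1.56 for Islr, 1.38 for Lipa, -1.24 for Fbxo5 and -1.82 for Zdhhc16, each past limma's threshold for the difference itself. Within WT cells late and early arrays differed by 1.17 for Slc12a7 and by -1.17 for Cyb561d1. Among probes that name no gene 8.64% were higher in late WT cells.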

How the results depend on the processing

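The named genes called in late against 0 h WT arrays also numbered 129, but they are not the same set as those with a value on every late array. Of them 33 kept their call under every alternative run, 95 lost it under at least 1, and 4 changed direction under at least 1. The genes that were higher (382) numbered 224 with arrays scaled to equal spread and 124 in a fit of the 7 arrays alone, and 188 to 345 with an array left out. The genes that were lower (390) numbered 222 without centring, 202 with quantile normalization, 147 with equal spread and 42 in the 7 arrays alone, and 197 to 479 with an array left out. Calls thus split as 336 higher and 222 lower without centring, 260 and 202 with quantile normalization, and 224 and 147 with equal spread. The 2 late against early calls became 1 without centring, 9 with quantile normalization, 0 with 1 probe per gene, 12 with probes measured on all 20 arrays, and 0 to 43 with an array left out (43 without the 4 h array). The 10 calls between genotypes became 0 without centring, 1 with 1 probe per gene, 3 with a filter on the WT groups alone, and 0 to 6 with an array left out. The replicate block gave 385 higher and 393 lower, 11 calls between genotypes and 2 between late and early; the shared numbers do not pair the arrays. With 1 probe per gene Cacybp was -0.28, H2ac8 0.75, Ddx27 -0.40 and Jag1 -0.011, and Jag1 was also -0.011 with probes measured on all 20 arrays. The cause was not tested. The slope was run without centring, with quantile normalization, with equal spread and with 1 probe per gene; its other alternatives were not run, and the 7 arrays alone cannot give the comparisons with early or KO arrays. With 1 array per late time and 3 at 0 h, small changes can be missed: of simulated shifts of 1 and 2 on the log2 scale 58% and 94% were called in late against 0 h WT arrays. In the test of the difference between genotypes 32% and 84% were called. The simulation shifted 200 genes, fewer than were called in the data, and the shares may differ with that number.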
